A study of Mus musculus with 6 samples.

Results

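Forkhead (FOX) genes encode transcription factors that share a winged-helix DNA-binding domain and are named by subfamily letter. In the series they were taken as every gene whose symbol is Fox followed by a letter and a number, which gave 43 of the 22180 genes measured. Each gene was read from a probe set that carries 1 gene symbol, and the brighter probe set was used for the 4 members with 2.

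Forkhead factors act in very different ways. FOXF and FOXC proteins build mesenchyme and vessels in the embryo. FOXD3 keeps neural crest precursors undifferentiated and holds back the melanocyte fate in bird embryos. FOXO proteins respond to insulin and PI3K signalling and leave the nucleus when it is on. FOXM1 drives genes of mitosis, and FOXP and FOXK proteins are mainly repressors. Melanocytes are pigment cells that derive from the neural crest, and SOX10 is a transcription factor of that lineage.

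The arrays compare 2 immortal mouse melanocyte lines, with 3 arrays each: a Sox10 LacZ/+ line from Ink4a-Arf null mice of 3 days of age, and melan-Ink4a-Arf-1, wild type at Sox10, for which the labels also use the name melan-a, with no word on whether both names mean one line, and which carries the Cdkn2a tm1RDp allele on both chromosomes. By their labels both therefore lack Ink4a-Arf (Cdkn2a), and both come from mice backcrossed to C57BL/6J. Both were grown at 10% CO2 in 10% serum with 200 nM of a phorbol ester (12-O-tetradecanoylphorbol 13-acetate) and 200 pM of cholera toxin, which raises cyclic AMP. Each genotype is a single line, so genotype and line cannot be told apart, and the labels do not say whether the replicates are separate cultures, so the p-values cover no more than the scatter among these arrays. Values are Affymetrix signals on a log2 scale as the authors deposited them, after RMA (background correction, normalization and summary per probe set). The test was limma, a moderated linear model for arrays, and a gene passed where its p, adjusted by Benjamini and Hochberg's method across the 22180 genes, was under 0.05.

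Array medians lay between 5.716 and 5.785. Wild-type replicate 2 stood apart: 261 of its genes lay 2-fold or more off the average of its fellow replicates, against at most 54 on any other array. Counts of members and listed genes past the test that changed without it are given both ways, as are some values. Sox10 had 9.70, 9.70 and 9.79 in Sox10 LacZ/+ cells and 9.98, 9.80 and 9.95 in wild-type cells, a difference that did not pass (-0.18, SE 0.08, limma adjusted p 0.213); where the probe set lies relative to the LacZ insertion is not known here, so this checks neither label. Cdkn2a averaged 7.07 in Sox10 LacZ/+ cells and 7.16 in wild-type cells (adjusted p 0.61), above 5.195, the 40th percentile over probe sets, and the bases its probe set covers are not known here either. The melanocyte markers Tyrp1 (12.89 in Sox10 LacZ/+ cells and 12.95 in wild-type cells), Pmel (12.85 and 12.63) and Mlana (12.06 and 12.35) were bright in both lines. Of the 13 melanocyte markers measured, 2 rose (Trpm1 and Mitf), beside 7.46% of all genes. Another 4 fell (Tyr, Gpr143, Oca2 and Dct), beside 5.92% of all genes, and 7 did not pass. The list means were 10.73 to 10.79 on the Sox10 LacZ/+ arrays and 10.88 to 11.13 on the wild-type arrays. Tyr, the gene of the key enzyme of melanin synthesis, averaged 8.65 in Sox10 LacZ/+ cells and 10.75 in wild-type cells. The means of 12 keratinocyte markers over each array lay at 5.45 to 5.54 in Sox10 LacZ/+ cells and 5.46 to 5.60 in wild-type cells, and those of 10 leukocyte markers at 5.40 to 5.43 in Sox10 LacZ/+ cells and 5.32 to 5.34 in wild-type cells. No keratinocyte marker passed in limma (0 of 12, with 3 at an unadjusted p below 0.05), and 2 leukocyte markers rose, Cd68 (8.46 in Sox10 LacZ/+ cells and 7.14 in wild-type cells) and Fcer1g (6.08 and 5.72).

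Of the 43 forkhead genes, 5 rose in Sox10 LacZ/+ cells, 2 fell and 36 did not pass. Foxf1, Foxp2, Foxc1 and Foxn3 rose more than 2-fold, Foxp1 rose less, and Foxd3 and Foxd2 fell. The 7 that passed are 16.3% of the family, beside 13.4% of all genes, a share near the background. The 5 that rose are 11.6%, beside 7.46% of all genes, and the 2 that fell are 4.65%, beside 5.92%. Past 2-fold as well were 4 members (9.30%), all higher, beside 3.53% of all genes in either direction and 1.94% higher. An unadjusted p below 0.05 was found for 16 members (37.2%), beside 24.9% of all genes. The median difference of the members was 0.02 on the log2 scale, beside 0.001 for all genes, and the median size of difference was 0.13 beside 0.12. In 16 members (37.2%, beside 31.6% of all genes) the arrays of one line all lay to one side of the other's, 11 of them higher in Sox10 LacZ/+ cells (25.6%, beside 17.0%) and 5 lower (11.6%, beside 14.6%).

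**Figure D1:**
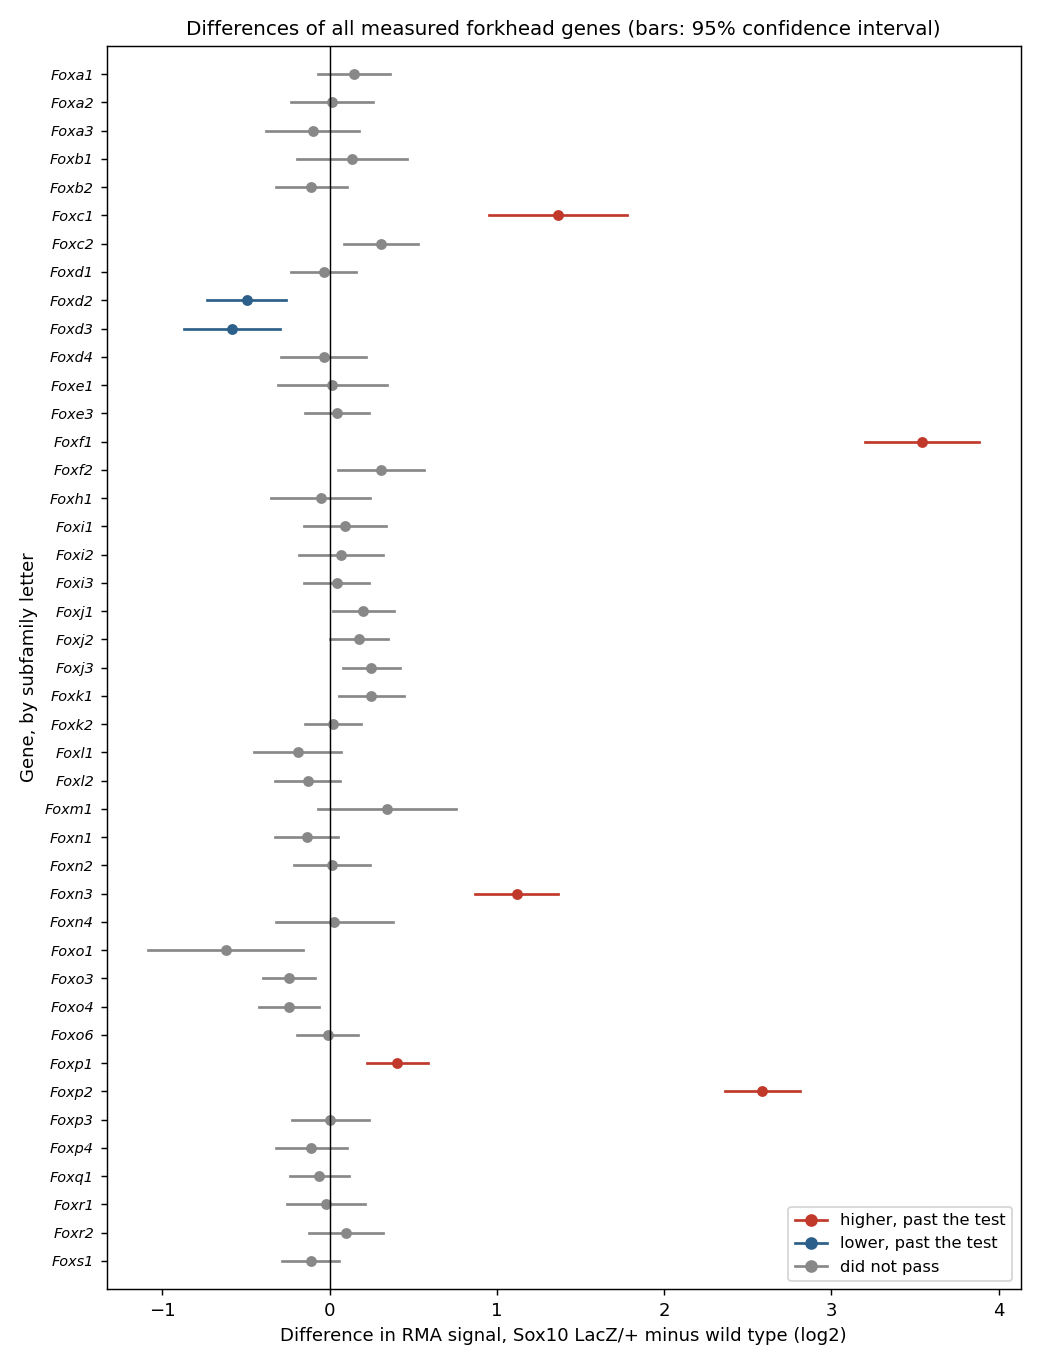
Differences in RMA signal between Sox10 LacZ/+ and wild-type cells on the log2 scale for all 43 measured forkhead genes, 3 arrays per line; bars are 95% confidence intervals of the limma fit and colours mark genes past the adjusted p of 0.05. Foxf1 and Foxp2 lie far to the right (3.54 and 2.59), and 32 of the 43 members lie within 0.3 of zero.

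Promoter sequence was held for 5 of the 7 members that passed, and the 250 bases before the start are shown for each of them because these are the genes that differ between the lines (RefSeq, mouse build GRCm38.p6, 5′ to 3′ on the strand of the gene). For Foxp1, which has 3 annotated starts in this table, the window of the start with the highest coordinates is shown. Capitals mark letters that match a core motif on either strand: GTAAACA for forkhead factors, ACAAAG or ACAATG for SOX factors, and CACGTG, an E-box of the kind bound by MITF and MYC.
Foxc1, chr13:31806396-31806645, plus strand: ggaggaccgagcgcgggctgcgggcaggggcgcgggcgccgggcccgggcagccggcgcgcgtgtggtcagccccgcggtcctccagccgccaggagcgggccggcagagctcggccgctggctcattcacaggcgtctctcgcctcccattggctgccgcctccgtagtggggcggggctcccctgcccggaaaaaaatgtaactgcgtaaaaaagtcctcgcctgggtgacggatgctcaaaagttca
Foxn3, chr12:99450075-99450324, minus strand: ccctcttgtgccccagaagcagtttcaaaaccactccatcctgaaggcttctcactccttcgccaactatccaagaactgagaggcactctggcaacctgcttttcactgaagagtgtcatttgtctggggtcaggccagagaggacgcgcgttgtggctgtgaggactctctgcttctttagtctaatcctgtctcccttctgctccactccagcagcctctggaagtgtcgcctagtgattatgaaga
Foxp1, chr6:99520994-99521243, minus strand: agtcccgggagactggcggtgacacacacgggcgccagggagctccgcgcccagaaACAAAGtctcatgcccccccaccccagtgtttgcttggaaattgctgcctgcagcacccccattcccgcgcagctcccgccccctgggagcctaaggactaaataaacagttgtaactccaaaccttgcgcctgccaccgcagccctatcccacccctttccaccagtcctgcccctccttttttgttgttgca
Foxd3, chr4:99656049-99656298, plus strand: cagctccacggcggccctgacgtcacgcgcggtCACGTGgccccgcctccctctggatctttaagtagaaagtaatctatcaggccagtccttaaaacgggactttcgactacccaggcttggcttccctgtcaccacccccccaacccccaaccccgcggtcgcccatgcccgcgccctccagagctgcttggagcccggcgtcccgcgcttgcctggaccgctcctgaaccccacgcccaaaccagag
Foxd2, chr4:114908899-114909148, minus strand: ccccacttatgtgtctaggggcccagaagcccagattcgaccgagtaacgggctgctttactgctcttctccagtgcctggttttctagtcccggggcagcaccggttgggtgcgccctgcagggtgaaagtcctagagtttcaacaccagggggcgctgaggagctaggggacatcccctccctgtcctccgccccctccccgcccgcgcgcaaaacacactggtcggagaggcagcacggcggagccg

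The window of Foxd3 holds the E-box, found in 6.02% of 32851 windows of this length before mouse genes. The Foxp1 window holds ACAAAG, found in 16.5% of all windows, the windows of its other starts hold 1 SOX motif each, and the windows of Foxc1, Foxn3 and Foxd2 hold none of the 4 motifs. Over the 33 windows of 28 forkhead genes in the table, ACAAAG was found in 21.2%, ACAATG in 6.06% (10.7% of all windows) and GTAAACA in 3.03% (3.17% of all windows). The family's windows had a median GC content of 62.0%, beside 52.4% for all windows, with a range of 37.6% to 80.4% and 7 of the 33 at or below the median of all. They had a median CpG content of 0.704 times that given by their C and G, beside 0.373. A match is a description of the letters and no sign of binding.

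Foxf1 had the largest difference of the family. It encodes a mesenchymal factor that is needed for the vessels of the lung and the embryonic gut wall. Its signal was 11.24, 11.17 and 11.14 in Sox10 LacZ/+ cells, against 7.28, 7.86 and 7.79 in wild-type cells. The groups lay far apart, and the lowest array was wild-type replicate 1. Foxf1 rose 11.6-fold (log2 difference 3.54, SE 0.15, 95% confidence interval 3.20 to 3.88, limma adjusted p 2.27e-06). Its relative Foxf2, on another chromosome, was dim, at 4.85, 4.68 and 4.76 in Sox10 LacZ/+ cells and 4.67, 4.26 and 4.44 in wild-type cells. These arrays did not overlap, but the difference of 0.31 (SE 0.11) did not pass (adjusted p 0.124), and both means were below the 40th percentile.

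**Figure D2:**
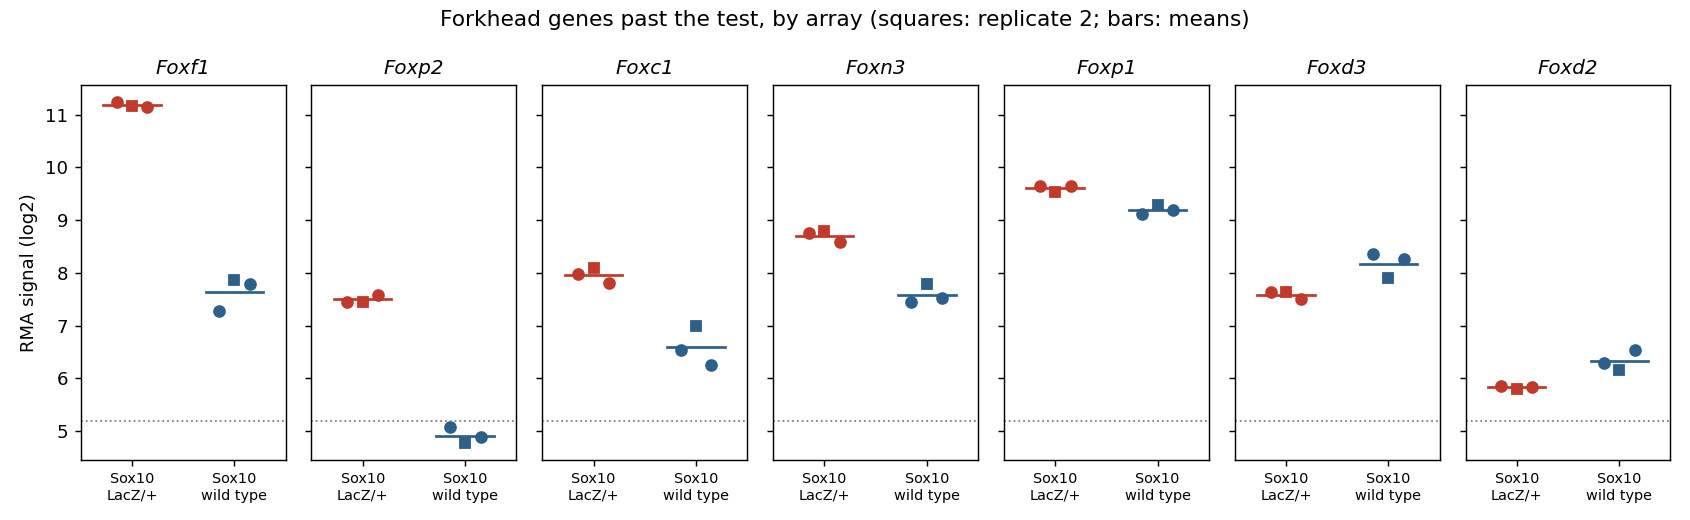
RMA signal (log2) on each array for the 7 forkhead genes past the limma test, Sox10 LacZ/+ arrays left of wild-type arrays; squares are replicate 2, bars are means of 3 arrays and the dotted line is the 40th percentile of all probe sets (5.195). No gene overlaps between the lines, and for Foxp2 the wild-type arrays lie below the dotted line.

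Foxc1 encodes a factor of cranial mesenchyme, eye and vessel development. It had 7.98, 8.09 and 7.81 in Sox10 LacZ/+ cells and 6.53, 7.00 and 6.26 in wild-type cells. The wild-type arrays were spread widely, with replicate 2 the highest, and still lay below every Sox10 LacZ/+ array. Foxc1 rose 2.57-fold (log2 difference 1.36, SE 0.18, limma adjusted p 0.00164), and without wild-type replicate 2 the difference was 1.57. Without the moderation of the variance it missed the threshold, at an adjusted p of 0.0532. Foxc2, which acts beside Foxc1 in somites and in lymphatic vessels, had 5.98, 6.12 and 6.03 in Sox10 LacZ/+ cells and 5.66, 5.64 and 5.91 in wild-type cells, a difference of 0.31 (SE 0.10) that did not pass (adjusted p 0.0757). Foxc2 passed under median centring (0.34, adjusted p 0.0455), under quantile normalization (0.34, 0.0427), with array weights (0.31, 0.0394) and without wild-type replicate 3 (0.40, 0.0243).

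Several FOXF, FOXC, FOXL and FOXQ genes lie in runs on chromosomes 8 and 13, and in both runs the difference was large for an adjacent pair of genes at the end. On chromosome 8 the measured genes run in the order Fendrr, Foxf1, Mthfsd, Foxc2 and Foxl1. Fendrr, a long noncoding RNA gene next to Foxf1, had 7.17, 7.46 and 7.17 in Sox10 LacZ/+ cells and 5.11, 4.91 and 4.93 in wild-type cells, and rose by 2.28 (SE 0.11, limma adjusted p 4.3e-06). Its wild-type mean of 4.98 lies below the 40th percentile. Mthfsd, on the other side of Foxf1, had means of 7.94 in Sox10 LacZ/+ cells and 7.89 in wild-type cells (0.05, adjusted p 0.814), and Foxl1, a factor of gut mesenchyme, had 6.07 and 6.26 (-0.19, adjusted p 0.36). The nearest measured gene beyond Fendrr, Irf8, differed by 0.19 (adjusted p 0.485).

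On chromosome 13 the order is Foxq1, 1700018A04Rik, Foxf2, Foxc1 and Gmds. Foxq1, known from hair and stomach epithelium, had means of 5.41 in Sox10 LacZ/+ cells and 5.47 in wild-type cells (-0.06, adjusted p 0.703). Gmds, which encodes an enzyme of GDP-fucose synthesis, had 8.17, 8.17 and 8.15 in Sox10 LacZ/+ cells and 7.02, 7.13 and 7.24 in wild-type cells, and rose by 1.03 (SE 0.08, adjusted p 8.35e-05) beside Foxc1. Mylk4, the next measured gene, differed by -0.15 (adjusted p 0.236). The neighbours were chosen for their position in the mouse annotation after the members' values were known.

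**Figure D3:**
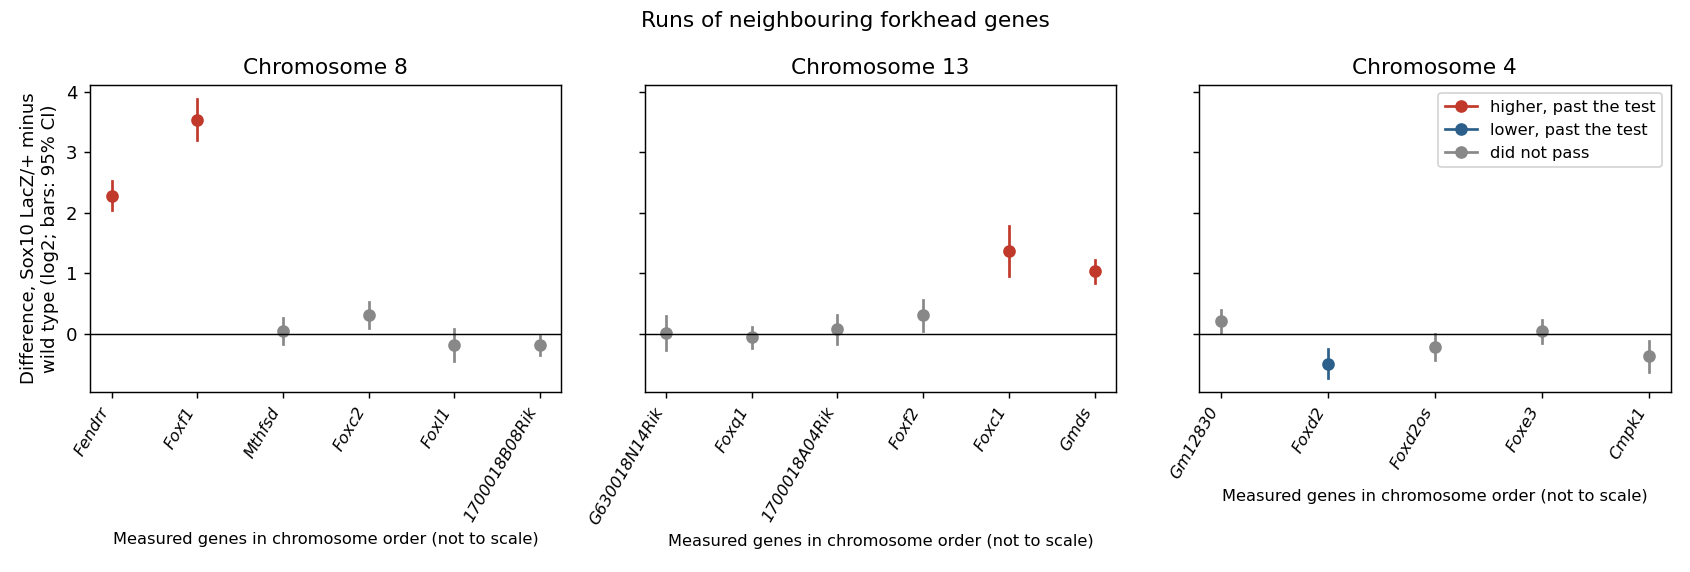
Log2 differences in RMA signal (Sox10 LacZ/+ minus wild type, bars are 95% confidence intervals) for the measured genes in chromosome order around forkhead runs on chromosomes 8, 13 and 4; spacing is not to scale. Fendrr and Foxf1 (2.28 and 3.54) and Foxc1 and Gmds (1.36 and 1.03) stand out as adjacent pairs, and on chromosome 4 only Foxd2 (-0.50) passed among the 5 genes drawn.

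Some markers of mesenchymal cells were also higher in Sox10 LacZ/+ cells. Fibroblast markers numbered 13, of which 4 rose and 9 did not pass, beside 7.46% of all genes that rose; among the 4, Dcn, a matrix proteoglycan gene, averaged 10.80 in Sox10 LacZ/+ cells and 4.88 in wild-type cells, and Pdgfrb, a growth factor receptor gene, 10.35 and 6.27. The median difference of the list was 0.15, well below those of Dcn (5.92) and Pdgfrb (4.08), and its mean signal was 7.01 to 7.04 on the Sox10 LacZ/+ arrays and 5.83 to 5.86 on the wild-type arrays. Lum (3.54 in Sox10 LacZ/+ cells and 3.64 in wild-type cells), Pdgfra (5.21 and 5.06), Fap (4.29 and 4.07) and Twist2 (4.67 and 4.97), all of them fibroblast markers, stayed near or below the 40th percentile in both lines. Of 12 endothelial and smooth muscle markers 5 rose, beside 7.46% of all genes (median difference of the list 0.19). Among them were the actin gene Acta2 (12.45 in Sox10 LacZ/+ cells and 7.11 in wild-type cells) and the endothelial markers Eng and Vwf. Without wild-type replicate 2, Eng rose by 0.92 and Vwf by 0.40. The list means were 6.68 to 6.77 in Sox10 LacZ/+ cells and 6.00 to 6.05 in wild-type cells. Other endothelial markers, Kdr (4.77 and 4.77), Tek (4.07 and 4.14) and Emcn (3.86 and 3.87), lay below the 40th percentile in both. The part of these markers in the rise of Foxf1 and Foxc1 was not tested, and in bulk samples more cells of a type and more RNA per cell cannot be told apart.

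FOXP proteins are repressors that bind DNA as dimers and recruit CTBP and NuRD. Foxp2, best known for its role in vocal learning and neural circuits, had 7.45, 7.45 and 7.59 in Sox10 LacZ/+ cells and 5.08, 4.78 and 4.88 in wild-type cells. The wild-type arrays lay far lower, and their mean of 4.91 was below the 40th percentile. Foxp2 rose 6.00-fold (log2 difference 2.59, SE 0.10, 95% confidence interval 2.36 to 2.81, limma adjusted p 1.28e-06).

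Foxp1, a broadly expressed relative with roles in lymphocytes, heart and lung, had 9.64, 9.53 and 9.64 in Sox10 LacZ/+ cells and 9.11, 9.29 and 9.19 in wild-type cells, with no overlap. It rose 1.32-fold (0.41, SE 0.08, adjusted p 0.0125), and lost the call without Sox10 LacZ/+ replicate 1 or 3 (adjusted p 0.0626 and 0.0652). Foxp4 (6.73 in Sox10 LacZ/+ cells and 6.83 in wild-type cells, adjusted p 0.545) and Foxp3, the factor of regulatory T cells (5.16 in both, adjusted p 0.989), did not pass.

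Chromosome 6 holds Foxp2, Foxp1, Foxm1, Foxj2 and Foxi3, and genes of this chromosome were higher in Sox10 LacZ/+ cells in general. Among its 714 genes above the 40th percentile the median difference was 0.24 and 33.5% passed as higher, beside 0.002 and 9.28% for 13892 such genes on the other chromosomes. The difference was positive in 5 of the 5 members on chromosome 6 and in 20 of the 38 elsewhere. Foxp1 (0.41), Foxm1 (0.34), Foxj2 (0.18) and Foxi3 (0.04) lay within 0.2 of the chromosome's median, and Foxp2 (2.59) lay far above it. Near Foxp2, Mdfic rose by 0.74 (SE 0.09) and Tfec, which encodes a relative of MITF, rose by 2.93 (SE 0.08, adjusted p 3.12e-07), with 7.57, 7.60 and 7.44 in Sox10 LacZ/+ cells and 4.60, 4.70 and 4.51 in wild-type cells. The wild-type mean of Tfec, 4.60, lay below the 40th percentile. On the other side, 1110019D14Rik rose by 0.38 (SE 0.10, adjusted p 0.042), and Ppp1r3a was dim in both lines (3.38 in Sox10 LacZ/+ cells and 3.45 in wild-type cells). Around Foxp1, Mitf, the master gene of melanocytes, rose by 0.67 (SE 0.07) and Eif4e3 by 1.75 (SE 0.07, adjusted p 2.17e-06), while Gm765 and Gm19665, the nearest measured genes on either side, were dim in both lines. The part of the chromosome-wide shift in the rise of Foxp1 and Foxp2 was not tested. With chromosome 6 left out of the fit, which was chosen after the data were seen, 5 of 38 members passed (13.2%), beside 12.6% of 20979 genes.

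Of 26 measured partners of FOXP and FOXK proteins, 2 rose, 1 fell and 23 did not pass (median difference 0.08, beside 0.001 for all genes), and 13.4% of all genes passed. With any 1 Sox10 LacZ/+ array left out, 1 of the 26 passed, a lower one, where 1768 to 1817 of 22180 genes passed. Without wild-type replicate 2, 5 rose and 1 fell, where 19.0% of all genes passed. Nfatc1, a calcium-regulated factor whose relatives pair with FOXP proteins, fell by 0.66 (SE 0.11, adjusted p 0.00564). Mcrs1 rose by 0.34 (adjusted p 0.0183), and the corepressor gene Ctbp2 by 0.27 (adjusted p 0.0491).

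Foxn3, which encodes a repressor first found as a checkpoint suppressor in yeast, had 8.75, 8.79 and 8.58 in Sox10 LacZ/+ cells and 7.45, 7.78 and 7.53 in wild-type cells. All Sox10 LacZ/+ arrays were higher than all wild-type arrays. Foxn3 rose 2.17-fold (log2 difference 1.12, SE 0.11, limma adjusted p 0.000278). Foxn2, its closest relative, overlapped between the lines, with 8.95, 8.83 and 8.70 in Sox10 LacZ/+ cells and 8.89, 8.67 and 8.88 in wild-type cells (0.02, 95% confidence interval -0.21 to 0.24). Ttc8, a ciliary gene near Foxn3, rose by 0.36 (SE 0.09, adjusted p 0.0323). The nearest measured genes on either side, 4930474N09Rik (-0.11, adjusted p 0.711) and 1700064M15Rik (-0.06, adjusted p 0.764), were dim and did not pass. Efcab11, beyond 1700064M15Rik, did not pass either (-0.07, adjusted p 0.765). Foxn1, the factor of thymic epithelium and hair, averaged 5.66 in Sox10 LacZ/+ cells and 5.79 in wild-type cells, Foxn4, a factor of the embryonic retina and spinal cord, 5.30 and 5.28, and neither passed.

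The 2 forkhead genes that fell are both FOXD genes. With any 1 Sox10 LacZ/+ array left out, no forkhead gene passed as lower. In those fits 1768 to 1817 of 22180 genes passed in either direction, against 2967 in the fit of all 6 arrays. Foxd3, the neural crest factor, had 7.63, 7.64 and 7.50 in Sox10 LacZ/+ cells and 8.36, 7.90 and 8.27 in wild-type cells. Wild-type replicate 2 was the lowest wild-type array and still above each Sox10 LacZ/+ array. Foxd3 fell to 0.668 times the wild-type level (log2 difference -0.58, SE 0.12, limma adjusted p 0.0176), and the difference was -0.72 (adjusted p 0.000805) without wild-type replicate 2. Its call was lost when any other single array was left out (adjusted p 0.0566 to 0.0779) and without moderation of the variance (adjusted p 0.115). Its measured neighbours Atg4c (-0.17, adjusted p 0.355) and Alg6 (0.05, adjusted p 0.883) did not pass.

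Foxd2, a factor of kidney and facial mesenchyme, had 5.85, 5.80 and 5.84 in Sox10 LacZ/+ cells and 6.29, 6.16 and 6.53 in wild-type cells. The lines did not overlap at this low signal. Foxd2 fell to 0.709 times the wild-type level (-0.50, SE 0.10, adjusted p 0.0158), and lost the call without any 1 of the Sox10 LacZ/+ arrays (adjusted p 0.0599 to 0.0677) and without moderation (0.0909). Its antisense neighbour Foxd2os had 6.07, 6.24 and 6.11 in Sox10 LacZ/+ cells and 6.51, 6.25 and 6.31 in wild-type cells (-0.22, adjusted p 0.188), and the bases that either probe set covers are not known here. Foxd1 (4.68 in Sox10 LacZ/+ cells and 4.72 in wild-type cells) and Foxd4 (4.37 and 4.41) lay below the 40th percentile in both lines.

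Schwann cell markers, which share the neural crest origin, were also lower in part: 4 fell, beside 5.92% of all genes, and 7 of the 11 did not pass, with list means of 6.21 to 6.34 on the Sox10 LacZ/+ arrays and 6.99 to 7.35 on the wild-type arrays. Wild-type replicate 2 held the lowest of these wild-type means, as it did for Foxd3. Without it 6 of the 11 fell, beside 8.63% of all genes. With any other single array left out 2 of the 11 fell. There 1768 to 2430 of 22180 genes passed in either direction, against 2967 in the fit of all 6 arrays. The part of these markers in the fall of Foxd3 was not tested.

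None of the 4 FOXO genes passed, and 3 of them were lower on every Sox10 LacZ/+ array, as were 14.6% of all genes. FOXO proteins are phosphorylated by AKT and SGK kinases and leave the nucleus when PI3K signalling is on. Foxo1 had 7.76, 7.78 and 7.65 in Sox10 LacZ/+ cells and 8.65, 7.83 and 8.58 in wild-type cells, so that wild-type replicate 2 lay just above the Sox10 LacZ/+ arrays and far below the other wild-type arrays. The difference was -0.62 (SE 0.20, adjusted p 0.0901). Without wild-type replicate 2 it was -0.88 (SE 0.08, adjusted p 0.000238). The second Foxo1 probe set, which was dimmer, had 6.04, 6.02 and 6.05 in Sox10 LacZ/+ cells and 6.35, 6.18 and 6.36 in wild-type cells, again with wild-type replicate 2 between the groups.

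Foxo3 had 7.61, 7.60 and 7.56 in Sox10 LacZ/+ cells and 7.85, 7.82 and 7.82 in wild-type cells. Its replicates lay close together, and its difference of -0.24 (SE 0.07) missed the threshold narrowly (adjusted p 0.0525, and 0.043 without wild-type replicate 2). Foxo4 had 8.27, 8.14 and 8.30 in Sox10 LacZ/+ cells and 8.47, 8.53 and 8.43 in wild-type cells (-0.24, SE 0.08, adjusted p 0.0838). Foxo6, known mainly from the brain, averaged 5.70 in Sox10 LacZ/+ cells and 5.72 in wild-type cells (adjusted p 0.951).

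**Figure D4:**
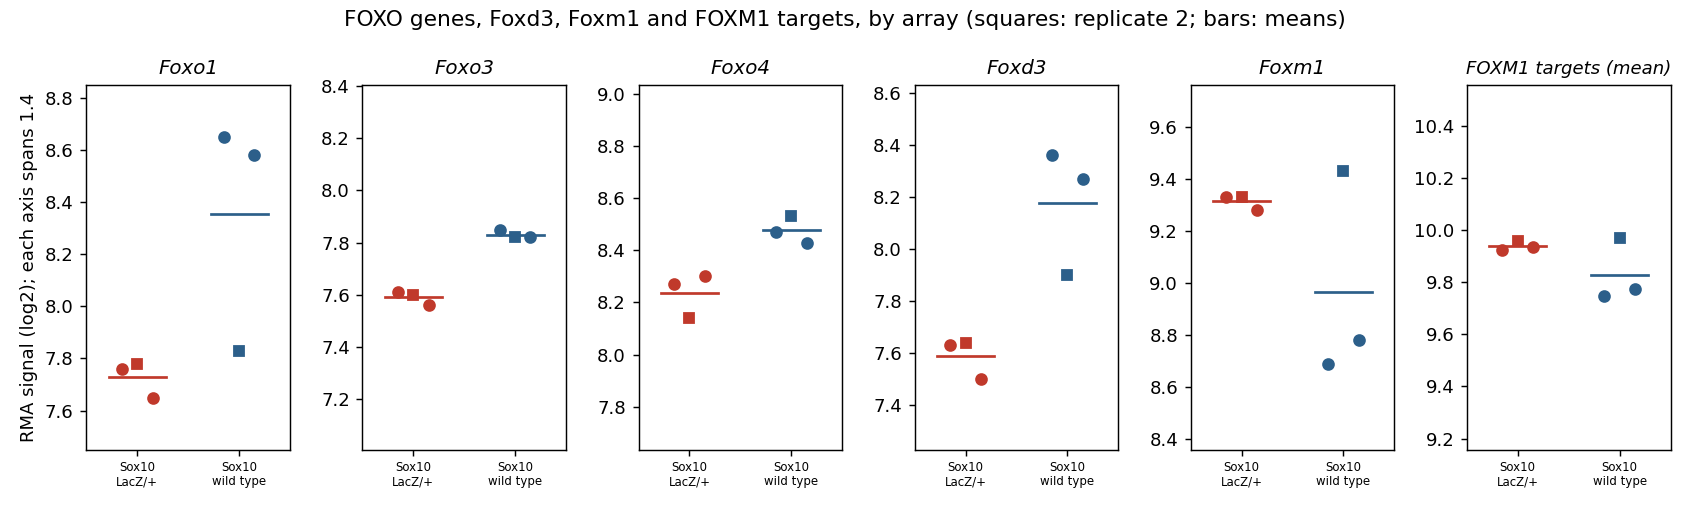
RMA signal (log2) on each array for Foxo1, Foxo3, Foxo4, Foxd3 and Foxm1, and the mean signal of 35 FOXM1 targets, Sox10 LacZ/+ arrays left of wild-type arrays; squares are replicate 2, bars are means of 3 arrays, and each axis spans the same range. Wild-type replicate 2 lies at the Sox10 LacZ/+ level for Foxo1 (7.83), Foxm1 (9.43) and the FOXM1 targets (9.969), and close to the other wild-type arrays for Foxo3 and Foxo4.

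Genes that FOXO factors are known to activate or repress moved both ways. Among 31 such genes, 4 rose, 3 fell and 24 did not pass, where 7.46% of all genes rose and 5.92% fell. Their median difference was -0.01 (0.001 for all genes). Without wild-type replicate 2, 4 rose and 5 fell, where 19.0% of all genes passed. Cdkn1a, the cell cycle inhibitor gene p21, had 10.46, 10.47 and 10.42 in Sox10 LacZ/+ cells and 11.39, 11.35 and 11.28 in wild-type cells, and fell by 0.89 (SE 0.07, adjusted p 9.95e-05). The gene of the death protein BIM, Bcl2l11, had 7.20, 7.19 and 7.21 in Sox10 LacZ/+ cells and 8.19, 7.51 and 8.21 in wild-type cells, and fell by 0.77 (SE 0.18, adjusted p 0.0245). In Bcl2l11, as in Foxo1, wild-type replicate 2 was the low wild-type array, and without it the difference was -1.003 (adjusted p 6.14e-05). Bcl6, a repressor gene, fell by 0.70 (SE 0.07), while Cited2, a coactivator-binding gene, rose by 1.28 (SE 0.27, adjusted p 0.0167). Cited2 had 10.65, 10.63 and 10.74 in Sox10 LacZ/+ cells and 9.73, 8.66 and 9.77 in wild-type cells, with wild-type replicate 2 far below the others, and without that array its difference was 0.92 (adjusted p 0.000147). With any 1 Sox10 LacZ/+ array left out, 3 of these 31 genes passed, 1 higher and 2 lower, where 1768 to 1817 of 22180 genes passed.

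Among 37 genes that act on FOXO proteins, 6 rose, 2 fell and 29 did not pass, with a median difference of 0.02, where 13.4% of all genes passed. The count of 8 was 4 or 5 with any 1 Sox10 LacZ/+ array left out, where 1768 to 1817 of 22180 genes passed. It was 12 without wild-type replicate 2, where 4222 genes (19.0%) passed. Sgk1, a kinase gene, had 10.13, 10.10 and 10.16 in Sox10 LacZ/+ cells and 8.62, 8.64 and 8.55 in wild-type cells, and rose by 1.53 (SE 0.07). Pik3r3, a regulatory subunit gene of PI3K, rose by 1.14 (SE 0.12). The catalytic subunit genes Pik3cb and Pik3cd fell by 0.89 (SE 0.10) and 0.72 (SE 0.08). Pik3cd was dim, at 5.19 in Sox10 LacZ/+ cells and 5.91 in wild-type cells.

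Foxm1, the mitotic activator on chromosome 6, had 9.33, 9.33 and 9.28 in Sox10 LacZ/+ cells and 8.69, 9.43 and 8.78 in wild-type cells. Here wild-type replicate 2 was the highest of the 6 arrays and the groups overlapped. The difference was 0.34 (SE 0.18, adjusted p 0.293), and without wild-type replicate 2 it was 0.58 (SE 0.07, adjusted p 0.00143). FOXM1 targets and the genes of its partner complexes likewise had their highest mean in wild-type replicate 2: the mean signal of 35 genes was 9.923, 9.958 and 9.937 in Sox10 LacZ/+ cells and 9.746, 9.969 and 9.774 in wild-type cells. In 32 of these 35 genes wild-type replicate 2 was above the average of its fellow replicates. Of the 35, Cdc25b, a phosphatase gene of mitotic entry (0.44, adjusted p 0.0202), and Lin9 (0.43, adjusted p 0.0342) rose and 33 did not pass (median difference 0.13). In the fit of all 6 arrays 7.46% of all genes rose. Without wild-type replicate 2, 11 of the 35 rose and 0 fell, where 19.0% of all genes passed in either direction. With any other single array left out at most 1 of the 35 passed, where 1768 to 2430 of 22180 genes passed.

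FOXK proteins are repressors linked to autophagy and glycolysis genes. Foxk2 had 9.82, 9.86 and 9.89 in Sox10 LacZ/+ cells and 9.81, 9.92 and 9.79 in wild-type cells, which overlap (0.02, 95% confidence interval -0.15 to 0.19). Foxk1 had 9.58, 9.61 and 9.64 in Sox10 LacZ/+ cells and 9.31, 9.50 and 9.27 in wild-type cells, with no overlap. Its difference of 0.25 (SE 0.08) did not pass (adjusted p 0.0996), but did without wild-type replicate 2 (0.32, adjusted p 0.0161) and with array weights (0.29, adjusted p 0.0269).

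None of the 3 FOXJ genes passed, and all 3 were higher on every Sox10 LacZ/+ array, as were 17.0% of all genes. Foxj2 had 9.49, 9.49 and 9.38 in Sox10 LacZ/+ cells and 9.23, 9.35 and 9.26 in wild-type cells (0.18, adjusted p 0.198). Foxj3 averaged 7.81 in Sox10 LacZ/+ cells and 7.56 in wild-type cells (0.25, adjusted p 0.0657). Foxj1, the master factor of motile cilia, was dim, at 5.12 in Sox10 LacZ/+ cells and 4.92 in wild-type cells (0.20, adjusted p 0.152). Of 20 measured ciliary targets of FOXJ1, Ift57 (0.53), Rfx3 (0.47) and Spef1 (0.43) rose and 17 did not pass (median difference -0.002), beside 7.46% of all genes that rose. The count of 3 was 1, 0 and 2 without Sox10 LacZ/+ replicates 1, 2 and 3, where 1768 to 1817 of 22180 genes passed. It was 1 without moderation of the variance, where 1717 genes passed.

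The remaining forkhead genes, among them the liver and gut factors Foxa1, Foxa2 and Foxa3, the pituitary and thyroid factor Foxe1, the lens factor Foxe3, the activin partner Foxh1, the inner ear factor Foxi1 and the ovarian factor Foxl2, showed small differences. Over the 27 members that neither passed, nor were among the 8 brightest, nor lay 0.3 apart without overlap, mean signals lay between 4.39 and 7.71, differences between -0.24 and 0.25, and adjusted p between 0.0525 (Foxo3) and 0.989. Both line means lay below the 40th percentile in 8 members of the family: Foxa1, Foxd1, Foxd4, Foxf2, Foxh1, Foxj1, Foxp3 and Foxr2.

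Without wild-type replicate 2 the count of members past the test was 11 (25.6%, beside 19.0% of all genes), 7 of them higher and 4 lower (9.30%, beside 8.63% of all genes), with Foxk1, Foxm1, Foxo1 and Foxo3 in addition to the 7 named at the outset. Without Sox10 LacZ/+ replicate 1 or 3 it was 4, where 1817 and 1768 of 22180 genes passed. Foxf1, Foxp2 and Foxn3 passed under all 15 alternatives that refit the whole table.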

How the data were processed

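Total RNA of cultured mouse melanocytes, labelled with biotin, was measured on 6 one-colour Affymetrix arrays. The authors deposited log2 values made with RMA, per the submitters' processing notes, which also name Partek; neither version nor settings are stated there. Of 41345 probe sets, 23521 carried 1 gene symbol, 1814 several and 16010 none in the platform annotation; 2 probe sets naming a forkhead gene beside others were left out. No pair of arrays was identical (0 pairs).

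For each gene the probe set with the highest mean over 6 arrays was used, without further scaling or filter. limma 3.58.1 in R 4.3.3 (lmFit, eBayes, 2-sided, 7.87 total degrees of freedom) compared 3 with 3 arrays. A limma fit of the same form, without the other steps, was tested on simulated data. Arrays give no counts, so their number limits the precision. Array values were printed for members that passed, the 8 brightest, and those without overlap that differed by at least 0.3; Foxo3, the second Foxo1 probe set, neighbouring genes and targets named beyond the rule were chosen after their values were seen. Of other lists up to 4 passing genes were named. The members, lists and tests were chosen with earlier results of these data known. All 43 members matched the RefSeq annotation (GRCm38.p6) by Entrez identifier. Replicate numbers did not pair the arrays (correlations of deviations 0.0074, 0.016 and -0.0039), so no block was used. Alternatives were other scalings, filters, variance priors, array weights, thresholds, the replicate number as a block, single arrays left out, and, added after the data were seen, chromosome 6 left out.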

Additional observations from a re-analysis of the deposited data

How the results depend on the processing

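The count of forkhead genes past the test was 7, and 13 with array weights, under which 3942 of all genes passed and wild-type replicate 2 had a weight of 0.329, 4 at an adjusted p of 0.01 and 4 with a 2-fold difference on top; with single arrays left out it ranged from 4 to 11. Over all genes 2967 passed, and 1717 without moderation, 1588 at an adjusted p of 0.01 and 782 with a 2-fold difference on top; with single arrays left out the range was 1768 to 4222. Median centring moved the median difference of all genes to 0.0303. Under median centring 9 members passed, under quantile normalization 8, with dim genes left out 9 and without moderation 5. With the replicate number as a block 2512 genes and 7 members passed, 5 higher and 2 lower, and the block changed the call of no named member. Among 16 named members, 4 values changed sign, all of them small: Foxk2 was -0.0044 without wild-type replicate 3 (range with single arrays left out -0.0044 to 0.0618), and Foxn2 was -0.0342 with array weights, -0.0471 without Sox10 LacZ/+ replicate 1 and -0.0559 without wild-type replicate 2 (range -0.0559 to 0.0778). Of the other values 211 kept their direction and side of the threshold, 13 lost a call and 11 gained one; Foxf2 gained its call without wild-type replicate 1 (0.41, adjusted p 0.046). The causes were not tested. Foxf2 in both lines, and Foxp2, Fendrr and Tfec in wild-type cells, had mean signals below 5.195, the 40th percentile over probe sets, so their values there were not shown to be above background.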
